A study of Mus musculus with 37 samples.

Results

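Tailbud RNA-seq of mouse embryos with 10 or 11 somites was examined to ask how loss of maternal SMCHD1 alters expression across genes at the end of the staged series. The comparison held 12 of the 37 embryos of the series, taken by the somite number and genotype in their labels. Somites are the paired blocks of mesoderm that bud off one after another, so their number dates an embryo. The tailbud carries the progenitors of the spinal cord and of the presomitic mesoderm, from which further somites form. Each library came from 1 embryo.

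All embryos were F1 offspring of C57BL/6 mothers and Castaneus (Cast) fathers that were Smchd1 +/+. Smchd1 wt controls were Smchd1 fl/+ embryos from Smchd1 fl/fl mothers, so they carried a floxed but intact maternal allele. Smchd1 matΔ embryos were Smchd1 del/+, from Smchd1 del/fl mothers that carried an MMTV-Cre transgene active in the growing oocyte. They received no SMCHD1 from the oocyte and a deleted maternal allele, while the paternal Cast allele was intact. Absence of the oocyte's supply and heterozygosity of the embryo therefore cannot be told apart in this design. There were 4 Smchd1 wt embryos (1 male) and 3 Smchd1 matΔ embryos (2 males) with 10 somites. At 11 somites there were 3 Smchd1 wt embryos (1 male) and 2 Smchd1 matΔ embryos (1 male). The labels do not say which embryos were littermates.

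SMCHD1 is a noncanonical SMC protein that keeps genes silent on the inactive X chromosome, at some imprinted loci and at gene clusters such as the protocadherins and Hox genes. It is brought to the inactive X after Polycomb repressive complex 1 has marked the chromatin. Oocyte SMCHD1 persists into the first days of the embryo, and imprinted genes respond to its loss. Hox genes set the identity of the vertebrae and are switched on in the tailbud in the order of their place in the cluster.

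The 12 libraries held 8477528 to 30156555 counts. Expression is given as CPM, counts per 1000000 counts in genes that passed the filter, with library sizes corrected by edgeR's TMM factors. These sizes and factors came from a fit of all 37 embryos. Log2 fold changes are Smchd1 matΔ over Smchd1 wt from edgeR's quasi-likelihood fit with somite number and sex in the model. The median standard error (SE) of a log2 fold change was 0.11 for the 7199 genes at 10 to 100 CPM and 0.25 for the 4414 genes at 1 to 10 CPM. Tailbud genes were present in every library, with T, the Brachyury factor of mesoderm progenitors, at 101 to 364 CPM and Cdx2 at 227 to 427 CPM. The heart factor Nkx2-5 was at 0 in all 12.

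One control stood apart. In Smchd1 wt replicate 1 at 10 somites, a male and the shallowest library, the summed level of the 24 listed visceral endoderm genes was 4563 CPM, against 153 to 871 CPM in the other 6 Smchd1 wt embryos. The progenitor and primitive streak list summed to 3009 CPM there, against 4328 to 5608 CPM in the other controls. Its presomitic mesoderm list was at 645 CPM, against 1022 to 1474 CPM, and its neural list at 182 CPM, against 328 to 409 CPM. Smchd1 matΔ replicate 2 at 10 somites was as rich in visceral endoderm RNA, with 4402 CPM, against 171 to 786 CPM in the other 4 Smchd1 matΔ embryos. Fewer cells of a type and less RNA per cell cannot be told apart in such tissue. Leaving out this control moved many values by over 1.5 times, and these are given with and without it for the lists and genes below that it moved most. Their dependence on tissue makeup was not tested.

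**Figure D1:**
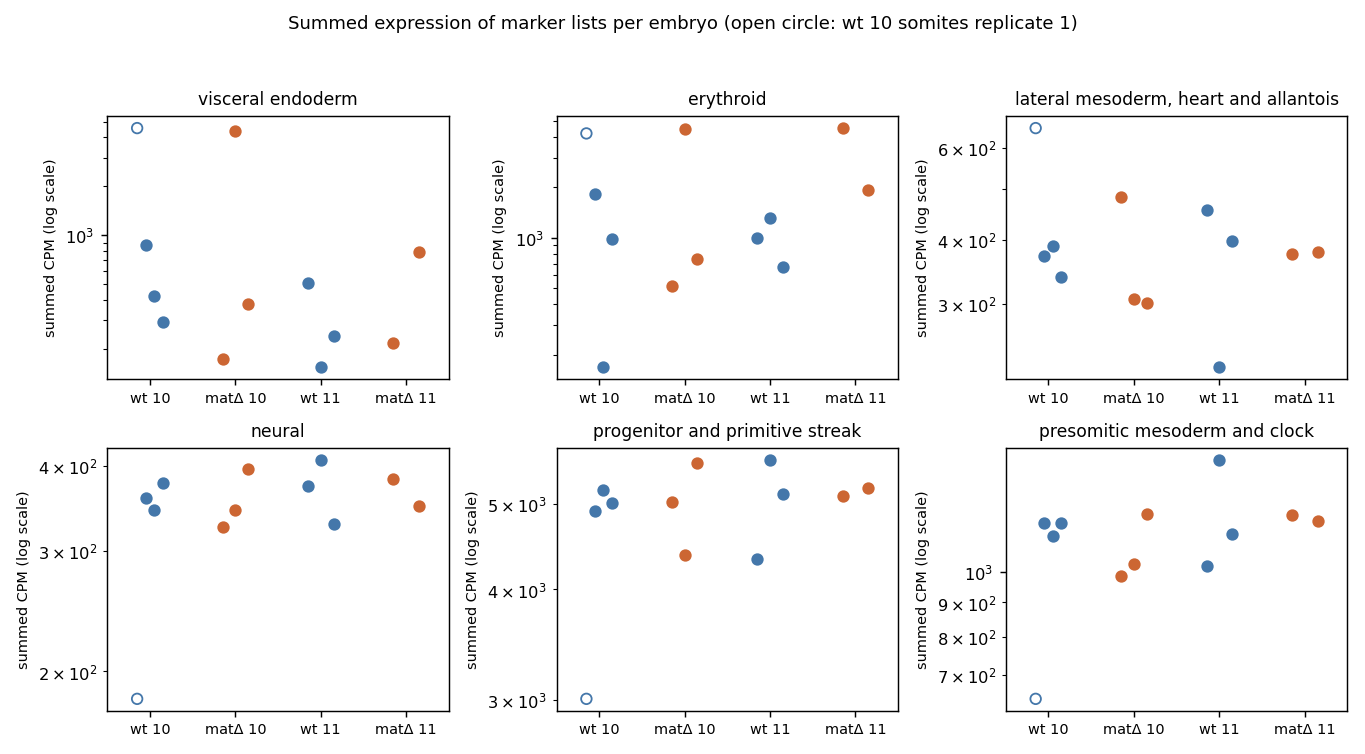
Summed CPM (log scale) of 6 marker lists in each of the 12 embryos, by genotype and somite number, with 1 point per embryo. The open circle, Smchd1 wt replicate 1 at 10 somites, was the highest control for visceral endoderm (4563 CPM) and the lowest embryo for the progenitor (3009 CPM) and neural (182 CPM) lists.

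Smchd1 itself was examined first, as a check of the genotypes. Smchd1 (ENSMUSG00000024054, chromosome 17, 71344489 to 71475343, GRCm38) was at 106, 149, 160 and 154 CPM in the 4 Smchd1 wt embryos with 10 somites and at 78.2, 98.0 and 107 CPM in the 3 Smchd1 matΔ embryos of that stage. At 11 somites it was at 183, 160 and 154 CPM in Smchd1 wt and at 76.5 and 95.4 CPM in Smchd1 matΔ embryos. All 5 Smchd1 matΔ values were under the control mean at their own somite number. The genotypes met only through Smchd1 wt replicate 1 at 10 somites, the control described above, since the other 6 controls were at 149 CPM or more.

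The controls averaged 152 ± 23.1 CPM of Smchd1 (SD, n = 7) and the Smchd1 matΔ embryos 91.1 ± 13.4 CPM (SD, n = 5). The log2 fold change of Smchd1 was -0.68, with an SE of 0.13. After Benjamini-Hochberg adjustment over all genes it did not pass in edgeR's quasi-likelihood test (adjusted p = 0.988). It passed under the Wald test of DESeq2 (adjusted p = 0.00277) and in edgeR when both libraries rich in visceral endoderm RNA were left out (log2 fold change -0.82, adjusted p = 0.0266). Over 21 alternative settings the log2 fold change lay between -0.82 and -0.51 and the adjusted p-value between 0.00277 and 1. The estimate was -0.49 at 10 somites and -0.93 at 11 somites, and the difference between the stages did not pass (adjusted p = 0.670, edgeR). In the 25 other embryos of the series, with 6 to 9 somites, it was -0.73 (SE 0.092, adjusted p = 3.32e-04, edgeR), and Smchd1 was the only gene of 15798 that passed there (0.00633%). DESeq2 called 3 in that window, Smchd1, Peg12 (adjusted p = 0.000363) and Etnk2, an ethanolamine kinase gene, and edgeR without the filter on low counts called 3, Smchd1, Peg12 (adjusted p = 0.0212) and Ddit4, a stress-induced gene (Etnk2 and Ddit4 named after their values were seen). The counts cover the whole gene, so RNA of the intact and deleted alleles was not separated.

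Across all genes few differences between the genotypes passed adjustment. Of 15528 genes tested, 0 (0.0%) passed the adjusted threshold of 0.05 in edgeR, and the smallest adjusted p-value was 0.988. Smchd1 itself was among the genes that did not pass, so this count does not show that the differences were small. Without adjustment, 642 genes (4.13%) had a p-value under 0.05, 398 higher in Smchd1 matΔ embryos (2.56%) and 244 lower (1.57%). DESeq2 called 2 genes on the same counts, Smchd1 and Ubr4. The genes ranked by genotype at 10 to 11 somites are therefore given by their values, and a gene that passed in another fit or comparison is named as such. Below, nominal means an unadjusted p-value under 0.05.

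The 12 genes with the smallest p-values among those higher in Smchd1 matΔ embryos had log2 fold changes of 0.34 to 1.09. They were Ubr4, Plec, Pfkp, Syne2, Tmem28, Creb3l4, Nat8l, Peg12, Gpr4, Dclk2, Tram1l1 and Deptor. All 12 were at a mean of at least 1 CPM, and unnamed gene models were passed over. All 12 were also positive at 10 somites and at 11 somites, and were still nominal when the control rich in visceral endoderm RNA was left out.

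Ubr4, an E3 ubiquitin ligase of the N-degron pathway, had the smallest p-value of the 12. In Smchd1 wt embryos Ubr4 was at 81.7, 152, 132 and 103 CPM at 10 somites and at 94.5, 129 and 131 CPM at 11 somites. In Smchd1 matΔ embryos it was at 119, 177 and 187 CPM at 10 somites and at 137 and 174 CPM at 11 somites. The groups overlapped, and all 5 Smchd1 matΔ embryos exceeded the Smchd1 wt mean of their stage. Ubr4 thus had a log2 fold change of 0.59 with an SE of 0.12 (adjusted p = 0.988, edgeR, and adjusted p = 0.0375, DESeq2). At 6 to 9 somites, in other embryos, the log2 fold change of Ubr4 was 0.08 (SE 0.083).

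Plec encodes plectin, which links intermediate filaments to other parts of the cytoskeleton. Its levels in Smchd1 wt embryos were 28.6, 34.9, 29.9 and 26.8 CPM at 10 somites and 23.3, 26.1 and 27.4 CPM at 11 somites. In Smchd1 matΔ embryos Plec was at 34.1, 38.5 and 42.0 CPM at 10 somites and at 41.2 and 35.2 CPM at 11 somites. A single pair of values crossed, with Smchd1 wt replicate 2 at 34.9 CPM above Smchd1 matΔ replicate 1 at 34.1 CPM, both of 10 somites. Its log2 fold change was 0.48 with an SE of 0.10 (adjusted p = 0.988, edgeR) over both stages, 0.38 at 10 and 0.60 at 11 somites.

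Syne2, which encodes nesprin-2 of the link between nucleus and cytoskeleton, was at 27.95 CPM in Smchd1 wt replicate 1 at 10 somites. In the other 6 controls Syne2 was at 51.8 to 69.1 CPM, and in the 5 Smchd1 matΔ embryos at 51.7 to 91.9 CPM. Its log2 fold change was 0.62 with that control and 0.46 without it. Pfkp, the platelet form of phosphofructokinase, averaged 45.7 ± 4.55 CPM in controls (SD, n = 7) and 55.4 ± 7.65 CPM in Smchd1 matΔ embryos (SD, n = 5), of which 4 of 5 exceeded the mean of their stage.

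Low-level genes among the 12 included Creb3l4, a bZIP transcription factor held in the endoplasmic reticulum membrane, and Gpr4, a proton-sensing receptor. Creb3l4 was at 0.416 to 1.46 CPM in Smchd1 wt and at 1.25 to 2.49 CPM in Smchd1 matΔ tailbuds, a log2 fold change of 1.09 (SE 0.29). Gpr4 was at 0.594 to 2.31 CPM and 0.989 to 3.63 CPM, a log2 fold change of 1.01 (SE 0.28). At 6 to 9 somites the log2 fold change of Creb3l4 was -0.04 and that of Gpr4 was -0.15. Both genes overlapped between the genotypes.

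Smchd1 led the 12 lower genes. The others were Mob3c, Pdhx, Nsun4, Polh, Rnf225, Kcnk2, Mgat2, Dnaaf1, Ippk, Syde1 and Rnf6. The log2 fold changes of the 12 ran from -1.42 to -0.27, all were negative at 10 and at 11 somites, and all were still nominal without the control rich in visceral endoderm RNA.

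Polh, the translesion DNA polymerase eta, separated the genotypes in every embryo. Smchd1 wt embryos were at 29.9, 27.6, 28.5 and 27.8 CPM at 10 somites and at 36.5, 29.1 and 28.4 CPM at 11 somites. Smchd1 matΔ embryos were at 26.8, 26.1 and 23.8 CPM at 10 somites and at 26.8 and 23.1 CPM at 11 somites. The gap was narrow, between 26.8 and 27.6 CPM. Polh had a log2 fold change of -0.29 with an SE of 0.077 (adjusted p = 0.988, edgeR), against -0.07 (SE 0.079) at 6 to 9 somites.

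Over all 15528 genes, 4 (0.0258%) had every Smchd1 matΔ embryo below every Smchd1 wt embryo in CPM and 10 (0.0644%) had every one above. Besides Polh, those below were Spag7, Fxyd5 and Golga5. The 10 above included Eno1, a glycolytic enolase, Rbm5, a splicing factor, Epb41l4a and Elk1, an ETS transcription factor, with 6 gene models that have no gene name. Spag7, Fxyd5, Golga5, Rbm5 and Epb41l4a were picked after their values were seen.

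Pdhx, a structural part of the pyruvate dehydrogenase complex, was at 38.1 to 50.3 CPM in Smchd1 wt and at 35.5 to 40.1 CPM in Smchd1 matΔ embryos. For Pdhx the log2 fold change was -0.30 (SE 0.077). Nsun4, a methyltransferase of mitochondrial ribosomal RNA, had a log2 fold change of -0.41 (SE 0.11). Kcnk2, a potassium channel, had the largest estimate of the 24 genes. It was at 0.819 to 2.64 CPM in Smchd1 wt and at 0.246 to 1.19 CPM in Smchd1 matΔ tailbuds, with a log2 fold change of -1.42 (SE 0.39). At 6 to 9 somites the log2 fold change of Kcnk2 was 0.20.

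Mgat2, an enzyme of N-glycan synthesis, owed part of its estimate to a single control. It was at 141 CPM in Smchd1 wt replicate 1 at 10 somites, at 65.0 to 84.8 CPM in the other 6 controls and at 61.8 to 80.7 CPM in the 5 Smchd1 matΔ embryos. The log2 fold change of Mgat2 was -0.37 (SE 0.10) with that control and -0.23 without it. Mgat2 shares its place in the genome with a gene model on the other strand, and Ubr4, Pfkp, Dnaaf1 and Ippk also overlap other genes. The strand used in counting is not given in the sources used here, so part of these counts may come from the neighbours.

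**Figure D2:**
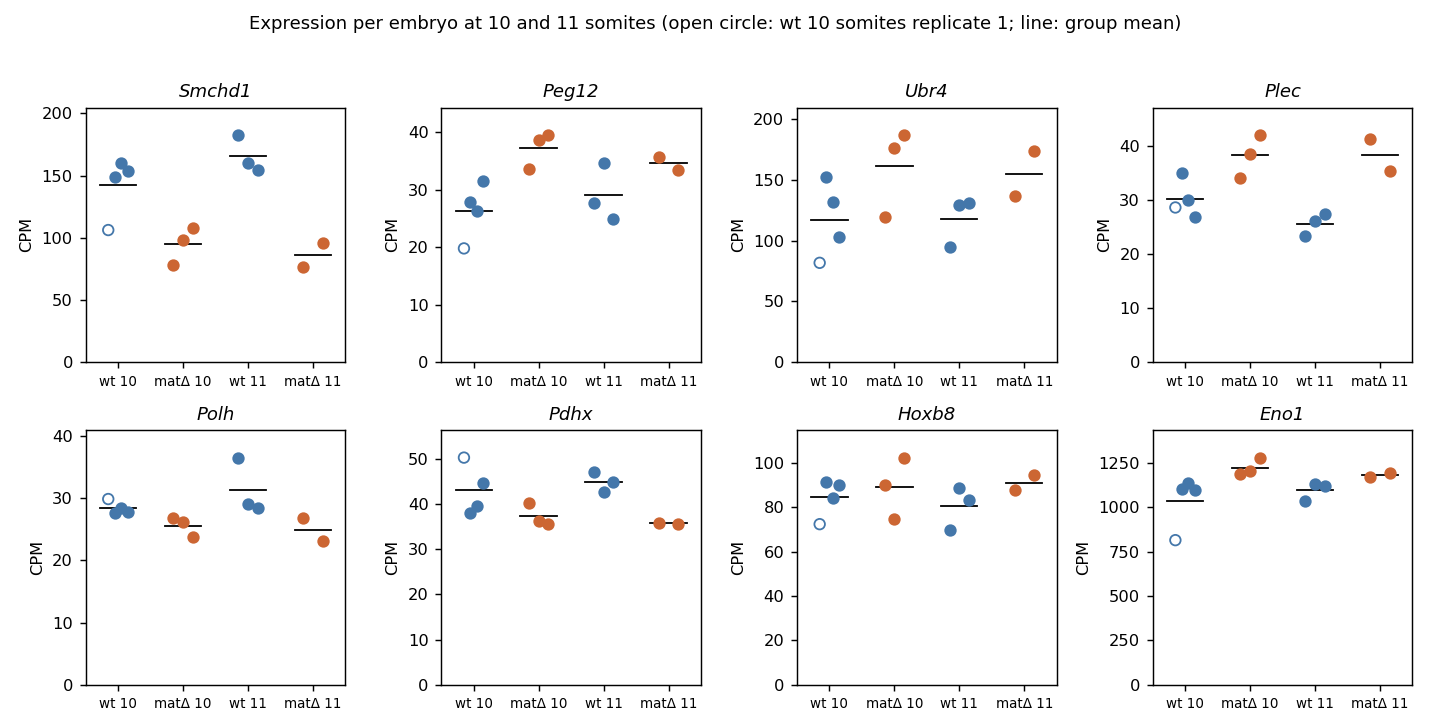
CPM of 8 genes in each embryo, by genotype and somite number, with points for embryos and lines for group means. The open circle is Smchd1 wt replicate 1 at 10 somites, and it alone among the controls falls within the Smchd1 matΔ range of Smchd1 (106 CPM against 76.5 to 107 CPM). The genotypes do not overlap for Polh or Eno1.

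The 25 embryos with 6 to 9 somites shared no library with those above, so their values were set beside the ranking. They were 14 Smchd1 wt (6 males) and 11 Smchd1 matΔ embryos (2 males), fitted with somite number and sex in the model. No Smchd1 matΔ embryo with 8 or 9 somites was male. Of the 12 higher genes, 9 were also positive there, with log2 fold changes of -0.25 to 0.53 over the 12. Of them 3 were nominal in that window, Peg12 (log2 fold change 0.53, SE 0.098; called by DESeq2 and by edgeR without the filter, as given above), Nat8l (0.36, SE 0.12) and Tmem28 (0.25, SE 0.10), against 5.01% of all genes. Nat8l makes N-acetylaspartate, and Tmem28 is X-linked. Of the 12 lower genes, 11 were also negative at 6 to 9 somites, and 2 were nominal, Smchd1 and Mgat2 (-0.16, SE 0.066).

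The wider set gave a similar picture. Of the 394 nominal genes that were higher at 10 to 11 somites and tested in both windows, 70.8% were also positive at 6 to 9 somites. Of the 239 lower genes, 76.2% were also negative. Over all 15304 genes tested in both, 58.9% had the same sign. The median log2 fold change at 6 to 9 somites was 0.08 for the higher and -0.08 for the lower genes. Nominal with the same sign in the earlier embryos were 31 of the 394 (7.87%) and 23 of the 239 (9.62%), against 4.04% of all genes.

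A direct test of the difference between the windows, fitted on all 37 embryos, called 0 of 16265 genes (0.0%). A further count, of nominal genes, was 234 (1.44%), and DESeq2 called 1, Csn3, which had 2 counts in a single embryo of the 12. The smallest p-values of that test belonged to Ppp1r12b, a myosin phosphatase subunit (difference of log2 fold changes, 10 to 11 minus 6 to 9 somites, 0.70), Actr3b, an actin-related protein (-0.85), and Phf2, a histone demethylase (-0.40).

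**Figure D3:**
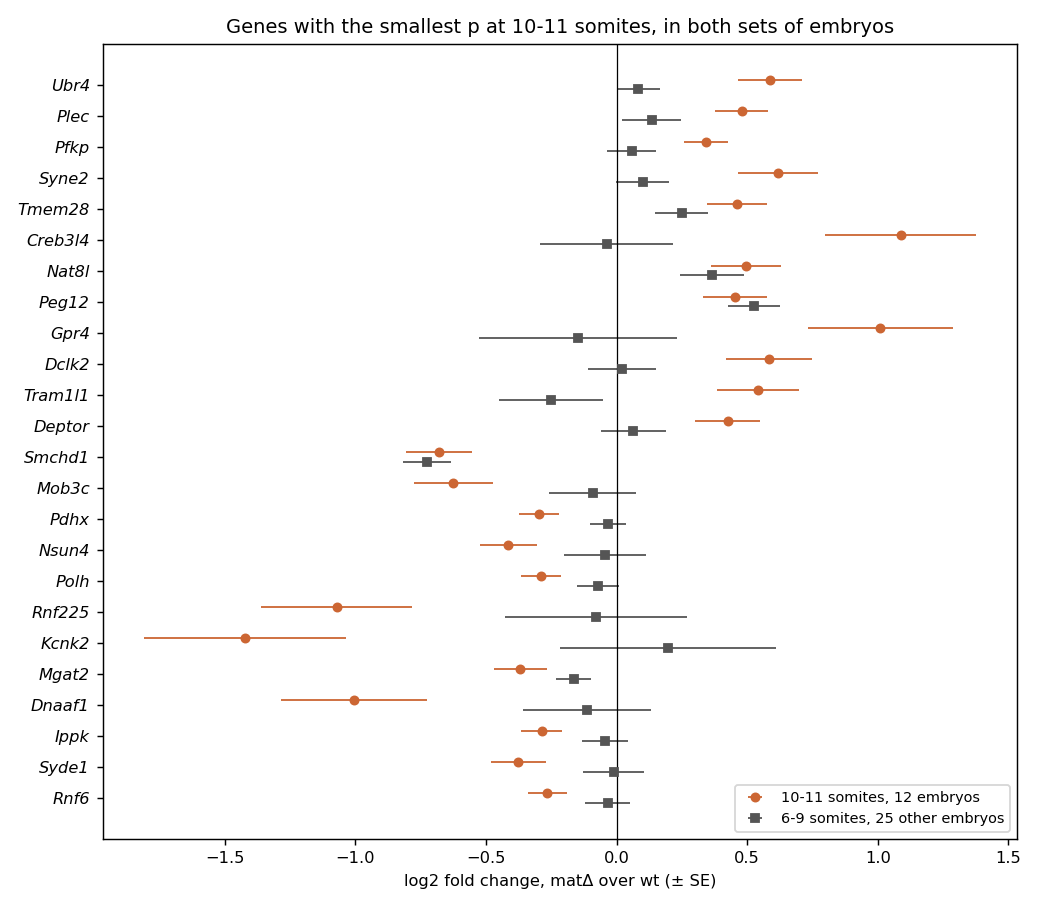
Log2 fold change (Smchd1 matΔ over Smchd1 wt, points with SE bars) of the 12 higher and 12 lower genes in the 12 embryos with 10 or 11 somites (circles) and in the 25 embryos with 6 to 9 somites (squares). Smchd1 and Peg12 have estimates of like size in both windows (-0.68 and -0.73 for Smchd1, 0.45 and 0.53 for Peg12), while Ubr4 is at 0.59 and 0.08.

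The stages were also fitted with a genotype effect each. At 10 somites 0 of 15985 genes passed in edgeR or DESeq2 and 931 (5.82%) were nominal. Without sex in the model that count was 124, with that stage fitted alone 1984, without Smchd1 wt replicate 1 of 10 somites 452 and without Smchd1 wt replicate 1 of 11 somites 1739. At 11 somites, with 3 against 2 embryos, 0 genes passed in edgeR and 732 (4.58%) were nominal, or 270 to 1480 with an embryo left out (lowest without Smchd1 wt replicate 1 of 11 somites, highest without Smchd1 wt replicate 1 of 10 somites). Leaving out either Smchd1 matΔ embryo with 11 somites gave 407 (replicate 1) or 1444 (replicate 2). DESeq2 called 4 genes at 11 somites, Smchd1 and 3 genes with at most 10 counts in each embryo of that stage (Platr27, Gstm3 and Tmem221, named after their values were seen).

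For no gene did edgeR show that the effect of genotype differed between 10 and 11 somites (0 of 15985, with 1031 nominal, 6.45%, or 512 to 1476 with an embryo left out, lowest without Smchd1 wt replicate 1 of 11 somites), and DESeq2 called the same 3 low-count genes. The smallest p-values belonged to Pclo, a presynaptic scaffold, Phlda3, a p53 target, and Sh3gl2, an endophilin. Pclo had a log2 fold change of 1.498 at 10 somites and -0.58 at 11 somites, and Phlda3 of -0.87 and 0.54. The change from 10 to 11 somites itself gave 0 genes in edgeR, with 1153 nominal (7.43%), and 4 in DESeq2 (Nectin2, Psmd3, Fbln1 and the gene model Gm49359).

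Imprinted genes, expressed from the allele of a single parent, were examined because they respond to maternal SMCHD1. Of 63 listed genes tested, 25 were higher and 38 lower, with a median log2 fold change of -0.05 against 0.0040 for all genes. Nominal were 7 (11.1%, against 4.13% of all genes): Peg12, Mkrn3 and Ascl2 were higher, and Usp29, Mest, Sgce and Dcn were lower.

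Peg12 (chromosome 7, 62461871 to 62464510, GRCm38), a paternally expressed gene with 1 exon near the Snrpn cluster, was at 19.8, 27.9, 26.2 and 31.5 CPM in Smchd1 wt embryos with 10 somites. In Smchd1 matΔ embryos of that stage Peg12 was at 33.6, 38.7 and 39.6 CPM. At 11 somites it was at 27.7, 34.6 and 24.9 CPM in Smchd1 wt and at 35.8 and 33.4 CPM in Smchd1 matΔ embryos. The genotypes were apart at 10 somites and overlapped at 11 somites, where Smchd1 wt replicate 2 lay above a Smchd1 matΔ embryo. For Peg12 the log2 fold change was 0.45 (SE 0.12, adjusted p = 0.988, edgeR) over both stages, 0.58 at 10 and 0.28 at 11 somites, and 0.34 without the control rich in visceral endoderm RNA.

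Neighbours of Peg12 on chromosome 7 were read beside it. Mkrn3, an E3 ubiquitin ligase also expressed from the paternal allele, was at 5.79 to 8.52 CPM in Smchd1 wt and at 7.91 to 12.1 CPM in Smchd1 matΔ embryos. For Mkrn3 the log2 fold change was 0.45 (SE 0.16), 0.27 at 10 and 0.68 at 11 somites, and 0.18 at 6 to 9 somites. Ndn, which encodes necdin, was at 85.7 ± 8.50 CPM (SD, n = 7) and 92.5 ± 8.92 CPM (SD, n = 5), a log2 fold change of 0.09 (SE 0.068), against 0.26 at 6 to 9 somites. Magel2 had a log2 fold change of 0.35 (SE 0.20) and Snrpn of -0.11 (SE 0.083), so the estimates along the cluster were not of a single sign.

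Lower imprinted genes included Usp29, a deubiquitinase gene of the Peg3 domain, at 15.8 to 33.0 CPM in Smchd1 wt and 12.8 to 22.3 CPM in Smchd1 matΔ embryos (log2 fold change -0.45, SE 0.13). Mest, a paternally expressed gene of mesoderm, had a log2 fold change of -0.29 (SE 0.12). Sgce was at -0.33 with the control rich in visceral endoderm RNA and at -0.17 without it. Ascl2, a bHLH factor and Wnt target, was at 0.305 to 0.923 CPM in Smchd1 wt and 0.396 to 1.57 CPM in Smchd1 matΔ embryos, a log2 fold change of 1.25 (SE 0.44).

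Genes of chromosome X other than Xist and Tsix showed no shared direction. Of 529 tested, 259 were higher and 270 lower, with a median log2 fold change of -0.0042, and 21 (3.97%, against 4.13%) were nominal. Xist, the noncoding RNA of X inactivation, had a log2 fold change of -0.16 (SE 0.55). The smallest p-values among higher genes were those of Tmem28 (0.46), Cdx4 (0.36) and Kdm5c (0.27, and 0.16 without the control rich in visceral endoderm RNA), and among lower genes that of Pwwp3b (-0.23). Only 1 X chromosome per cell is silenced in females and none in males, so the sexes were also fitted apart. In the 7 females (2 of them Smchd1 matΔ) the median over 518 X-linked genes was 0.03, with 31 higher and 3 lower nominal genes (6.56%, against 5.75% of all genes). In the 5 males (2 Smchd1 wt) it was -0.06 over 523 genes, with 2 higher and 20 lower nominal genes (4.21%, against 3.56%). No test of females against males was made for these genes, and the controls among the males included the library rich in visceral endoderm RNA.

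The sexes differed as their labels said. The test of males against females called 18 genes (0.116%; DESeq2 110), among them Xist and Tsix, lower in males, and the Y-linked genes Kdm5d, Uty, Ddx3y and Eif2s3y, higher in males.

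Clustered protocadherins, cell surface proteins that SMCHD1 keeps silent in other tissues, varied together. Their 34 tested members had a median log2 fold change of -0.0039, 14 were positive and none was nominal in edgeR or DESeq2. In the females all 34 were negative (median -0.15, 16 nominal, 47.1% against 5.75%), and in the males all 34 were positive (median 0.21, none nominal). Without the control rich in visceral endoderm RNA 33 of 34 were negative. Members of a cluster share their last exons and overlap in the annotation, so a read can be counted for several of them, and the 34 values are not separate measurements.

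Partners of SMCHD1 were examined as a list. Of 12 genes for its recruitment and for silencing (Lrif1, Hnrnpk, Polycomb complex 1 members, HP1 proteins, Setdb1 and Trim28), Smchd1 alone was nominal (8.33%, against 4.13%). Of 33 Polycomb genes none was nominal in edgeR and 1 was in DESeq2, 18 were lower, and the median log2 fold change was -0.02. Without the control rich in visceral endoderm RNA, 10 of the 12 were lower and 2 were nominal (16.7%, against 6.04%), Smchd1 and Pcgf3, a Polycomb complex 1 member (-0.17). Of the 33 Polycomb genes 22 were then lower and 3 nominal (9.09%), Pcgf3, Pcgf6 (-0.25) and Rybp (-0.21), all named after their values were seen. The smallest p-value in that list belonged to Rbbp7, at -0.13 (SE 0.066). Ezh2, the methyltransferase of Polycomb complex 2, was at 0.06 (SE 0.080; chosen after its value was seen, as were Magel2, Snrpn and Xist).

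Hox genes were examined because the study asked whether they are expressed too early without maternal SMCHD1. The list of Hox1-9 genes had been singled out on these embryos, so its direction is not independent evidence. Of 27 tested Hox1-9 genes, 26 were positive, with a median log2 fold change of 0.19 against 0.0040 for all genes, and 7 (25.9%, against 4.13%) were nominal. These were Hoxb8, Hoxa7, Hoxa2, Hoxb3, Hoxd3, Hoxc4 and Hoxb5, with log2 fold changes of 0.20 to 0.41.

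Hoxb8 had the smallest p-value of the Hox genes. It was at 72.3, 91.4, 84.2 and 90.02 CPM in Smchd1 wt embryos with 10 somites and at 89.8, 74.6 and 102 CPM in Smchd1 matΔ embryos of that stage. At 11 somites Hoxb8 was at 69.8, 88.6 and 83.4 CPM in Smchd1 wt and at 87.7 and 94.4 CPM in Smchd1 matΔ embryos. The genotypes overlapped at both stages. Its log2 fold change was 0.20 with an SE of 0.070 (adjusted p = 0.988, edgeR), and it was 0.20 without the control rich in visceral endoderm RNA and 0.11 at 6 to 9 somites.

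Hoxa7 was at 134 CPM in Smchd1 wt replicate 1 at 10 somites and at 162 to 248 CPM in the other 6 controls. The 5 Smchd1 matΔ embryos were at 179 to 248 CPM. Its log2 fold change was 0.28 (SE 0.11) with that control and 0.19 without it. Hoxa2 was at 0.41 and 0.25, and Hoxc4 at 0.25 and 0.13. Hoxd3, at 0.25 and 0.27, and Hoxb3, at 0.22 and 0.26, did not shrink. Hoxc6 had a log2 fold change of 0.20 (SE 0.098), 0.11 at 10 and 0.32 at 11 somites. Hoxa7, Hoxa2, Hoxb3, Hoxd3 and Hoxb5 overlap other genes, mostly on the other strand, so these counts may be shared.

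The Hox1-9 result varied with that control and between the fits of each sex. That control was 1 of the 2 male Smchd1 wt embryos, so sex and that library cannot be told apart in these fits. Without Smchd1 wt replicate 1 at 10 somites, 22 of 27 Hox1-9 genes were positive and the median was 0.08. Nominal were 3 higher and 1 lower (14.8%, against 6.04% of all genes). In females alone 17 of 27 were positive (median 0.04), with 3 higher and 1 lower nominal (14.8%, against 5.75%). In males alone 27 of 27 were positive (median 0.32), 6 of them nominal (22.2%, against 3.56%). Without sex in the model 24 were positive (median 0.08), 1 of them nominal (3.7%, against 1.92%). At 6 to 9 somites 11 of 27 were positive (median -0.01). That control was low for Hox genes and for progenitor genes alike, and whether its tissue makeup set the Hox values was not tested.

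By paralogue group, the 17 genes of groups 2 to 7 were all positive with and without that control, with medians of 0.20 and 0.18. The study had singled out groups 2 to 7 on these embryos, so their shared direction is not independent evidence. At 6 to 9 somites, in other embryos, 7 of the 17 were positive (median -0.01). Groups 8 and 9 had medians of 0.17 and 0.12 with that control and 0.03 each without it. The 8 tested genes of Hox10-13, the last to be switched on, were mixed: 3 were positive, the median was -0.09, and none was nominal in the main edgeR fit or DESeq2. Their sign turned with that control, since without it 5 of 8 were positive (median 0.14). A replicate block, by somite number and replicate number with sex in the model, drew its genotype estimate only from same-numbered pairs of like sex. With that block 7 of 8 were positive (median 0.32) and 1 was nominal, higher (12.5%, against 1.78% of all genes). In females alone 6 were positive (median 0.30) and in males alone 1 (median -0.37). At 6 to 9 somites 0 of 8 were positive (median -0.46) and 1 was nominal (12.5%, against 5.01%). Of the Hox10-13 genes, Hoxd13 had the smallest p-value in the main fit, at 0.34 (SE 0.26). On the deposited log2 RPKM scale (reads scaled to library size and transcript length, a level per length), Hoxd13 was at 1.32 ± 0.55 in controls (SD, n = 7) and 1.56 ± 0.67 in Smchd1 matΔ embryos (SD, n = 5).

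**Figure D4:**
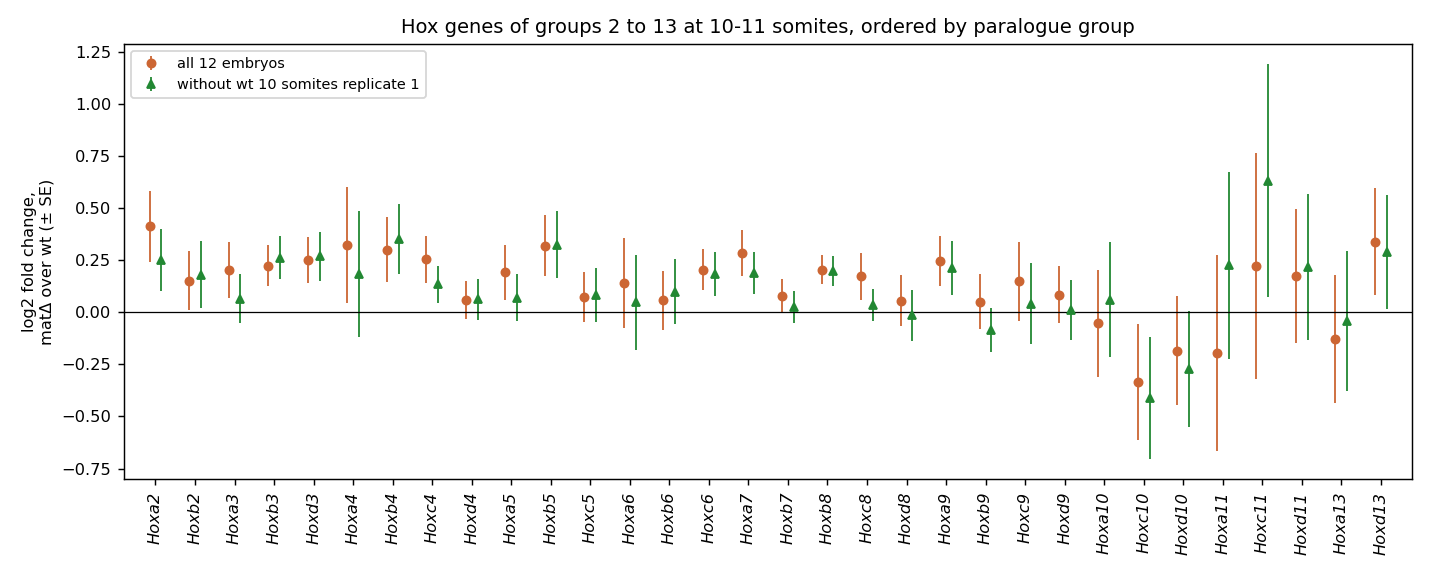
Log2 fold change (Smchd1 matΔ over Smchd1 wt, with SE bars) of the 32 tested Hox genes of paralogue groups 2 to 13, in the order of their groups, with all 12 embryos (circles) and without Smchd1 wt replicate 1 at 10 somites (triangles). Of the 24 genes of groups 2 to 9, 24 lie above 0 with all embryos and 22 without that control, and the bars of the Hox10-13 genes are wide.

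Progenitor and primitive streak genes leaned the same way as the Hox genes. Of 24 tested, 20 were positive (median log2 fold change 0.21), and 6 (25%, against 4.13%) were nominal. They were Cdx4, a homeobox activator of trunk Hox genes, T, Fgf8, the FGF ligand of the posterior growth zone, Mixl1, Sp8 and Evx1. Cdx4 was at 300 CPM in Smchd1 wt replicate 1 at 10 somites, at 578 to 707 CPM in the other 6 controls and at 543 to 843 CPM in Smchd1 matΔ tailbuds. For Cdx4 the log2 fold change was 0.36 (SE 0.12) with that control and 0.21 without it. T was at 101 CPM there, at 150 to 364 CPM in the other controls and at 207 to 316 CPM in Smchd1 matΔ embryos, and its log2 fold change was 0.53 with it and 0.35 without it. Mixl1 was at 0.57 and 0.32, Sp8 at 0.41 and 0.22, and Evx1 at 0.34 and 0.19.

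The lists of the growth zone also differed between the fits of each sex. The males were 2 Smchd1 wt and 3 Smchd1 matΔ embryos. Smchd1 wt replicate 1 at 10 somites was the only male control of that stage, so sex and that library cannot be told apart. In females alone the progenitor list had a median of 0.06, with 2 higher and 1 lower nominal genes (12.5%, against 5.75%), and in males alone of 0.55, with 11 higher (45.8%, against 3.56%). Without sex in the model its median was 0.11 and none was nominal. T was at 0.097 in females and at 1.07 in males. The FGF list had medians of -0.07 in females and 0.46 in males and the Wnt list of -0.08 and 0.33. No test of females against males was made for these lists.

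Left without that control, 19 of the 24 progenitor genes were positive, the median was 0.12, and 1 was nominal (4.17%, against 6.04% of all genes). With the replicate block 7 were nominal (29.2%, against 1.78%) and under DESeq2 10 were (41.7%, against 4.45%), all higher. At 6 to 9 somites, in other embryos, 21 of the 24 were positive (median 0.07). Of these 4 were nominal (16.7%, against 5.01% of all genes). The presomitic mesoderm and clock list gave a median of 0.18 over 20 genes with that control and 0.03 over 21 genes without it. The FGF list went from 0.15 to -0.0020 over 23 genes, and the Wnt list from 0.07 to -0.04 over 33. Rspo3, a Wnt agonist of the presomitic mesoderm, was at 0.37 and 0.15, and Dusp6, a feedback phosphatase of FGF signalling, at 0.29 and 0.19. In the FGF list Fgfr2 was lower (-0.27, SE 0.12), and its annotated span in the table overlaps many other genes.

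Neural genes had a median of 0.23 over 19 genes, and 0.13 over 20 without that control. Nefm, Nefl and Tubb3, cytoskeletal genes of neurons, were at 0.49, 0.38 and 0.47 with it and at 0.45, 0.47 and 0.54 without it, and Nefm and Nefl overlap on opposite strands. At 6 to 9 somites 18 of the 19 neural genes were positive (median 0.25), 5 of them nominal (26.3%, against 5.01% of all genes). Of 13 somite genes Pax3, a paired-box factor of dorsal neural tube and somite, was nominal (7.69%, against 4.13%), at 0.47 (SE 0.20). Without that control Pax3 was at 0.26, none of the 13 was nominal in edgeR, and the median of the list went from 0.22 to 0.04. Pax3 was at 0.43 (SE 0.14) at 6 to 9 somites. In that window 10 of the 13 somite genes were positive (median 0.43), 5 of them nominal (38.5%, against 5.01% of all genes). Retinoic acid, BMP, Nodal and notochord lists each had at most 1 nominal gene: Id2, a BMP target (-0.20, SE 0.093, and -0.12 without that control; 4.55% of 22 genes), and Pkd2, a channel of left-right sensing (-0.16, SE 0.067; 7.14% of 14 genes), against 4.13% of all genes.

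Genes of other tissues differed widely between embryos of the same genotype. Of 23 visceral endoderm genes 20 were positive (median 0.47), and none was nominal in edgeR or DESeq2. Single libraries set that median. Without the control rich in visceral endoderm RNA it was 1.13 (23 of 23 positive), and without both such libraries 0.015 (12 positive). With the replicate block, to which Smchd1 matΔ replicate 2 at 10 somites added nothing for genotype, it was -0.98 (3 positive). Summed erythroid genes were at 168 to 4188 CPM in Smchd1 wt and 515 to 4506 CPM in Smchd1 matΔ embryos. The adult globins Hbb-bt (-1.32, SE 0.48) and Hbb-bs (-1.29, SE 0.54) were lower, in 18 erythroid genes of which 16 were positive and these 2 nominal (11.1%, against 4.13%). Without that control Hbb-bt was at -0.86 and Hbb-bs at -0.69, none of the 18 was nominal in edgeR, and the median of the list went from 0.39 to 0.85. The lateral mesoderm, heart and allantois list had a median of -0.16 over 16 genes with the control rich in visceral endoderm RNA and 0.06 without it. The 18 endothelial genes had a median of -0.04 with none nominal in edgeR or DESeq2. Of 14 surface ectoderm genes Cldn4, a tight junction claudin, was nominal (0.25, SE 0.11; 7.14%, against 4.13%), and of 13 germ cell and pluripotency genes Prdm14 (1.14, SE 0.46) and Utf1 (-0.74, SE 0.33) were (15.4%), each at under 2 CPM in every embryo.

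Glycolysis had the largest share of nominal genes among the lists in the fit of all 12 embryos. Of 26 genes tested, 22 were positive (median log2 fold change 0.15), and 8 (30.8%, against 4.13%) were nominal, all higher: Pfkp, Eno1, Pkm, Pfkl, Hk2, Gpi1, Hk1 and Ldha. Eno1 was at 815, 1101, 1136 and 1097 CPM in Smchd1 wt embryos with 10 somites and at 1187, 1202 and 1280 CPM in Smchd1 matΔ embryos. At 11 somites it was at 1037, 1132 and 1121 CPM and at 1169 and 1194 CPM. Every Smchd1 matΔ embryo was thus above every control. For Eno1 the log2 fold change was 0.25 (SE 0.077), and 0.16 without the control rich in visceral endoderm RNA.

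Pkm, the pyruvate kinase of growing tissue, had a log2 fold change of 0.23 (SE 0.082) and Ldha, lactate dehydrogenase A, of 0.17 (SE 0.077). Without that control 23 of the 26 glycolysis genes were positive (median 0.11) and 4 were nominal (15.4%, against 6.04% of all genes). At 6 to 9 somites, in other embryos, the median was 0.12 and 8 of the 26 were nominal, all higher (30.8%), against 5.01% of all genes. Females alone gave a median of 0.08 with 4 nominal (15.4%, against 5.75%), and males alone of 0.23 with 1 (3.85%, against 3.56%). With the replicate block 1 of the 26 was nominal (3.85%, against 1.78%), and without sex in the model 2 were (7.69%, against 1.92%). Hk2, a hexokinase, was at 0.32 with the control rich in visceral endoderm RNA and at 0.17 without it.

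The median of ribosomal protein genes depended on the same control: of 78, 23 were positive with it (median -0.04) and 72 without it (median 0.13, 10 nominal, all higher, 12.8% against 6.04%). Of 20 p53 target genes, Cdkn1a, the cell cycle inhibitor p21, was higher (0.46, SE 0.16) and Sesn2, a stress sensor, lower (-0.27, SE 0.11). Together these nominal genes were 10% of the list, against 4.13% of all genes. The 24 sterol synthesis genes had a median of 0.09, and the 20 immediate early genes, which respond to handling, of -0.10. Replication-dependent histones had a median of 0.23 over 14 genes and mitochondrial transcripts of 0.07 over 12, against 0.33 over 19 and 0.19 over 12 without that control. With all 12 embryos, sex in the model and the filter on counts, none of the members of these 4 lists was nominal in edgeR or DESeq2. Without that control some were nominal in edgeR, all higher. They were 2 of 12 mitochondrial transcripts (16.7%), 1 of 19 histone genes (5.26%) and 1 of 20 immediate early genes (5%), against 6.04% of all genes. Without sex in the model 2 of 13 histone genes (15.4%) and 2 of 20 immediate early genes (10%) were nominal in edgeR, all higher, against 1.92% of all genes. Srebf2, the regulator of sterol genes, was at 0.18 (SE 0.088), and Hist1h1c at 0.50 (SE 0.24), or 0.81 without that control and 0.31 without Smchd1 wt replicate 1 at 11 somites. No gene of the 2-cell stage list passed the filter on counts.

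**Figure D5:**
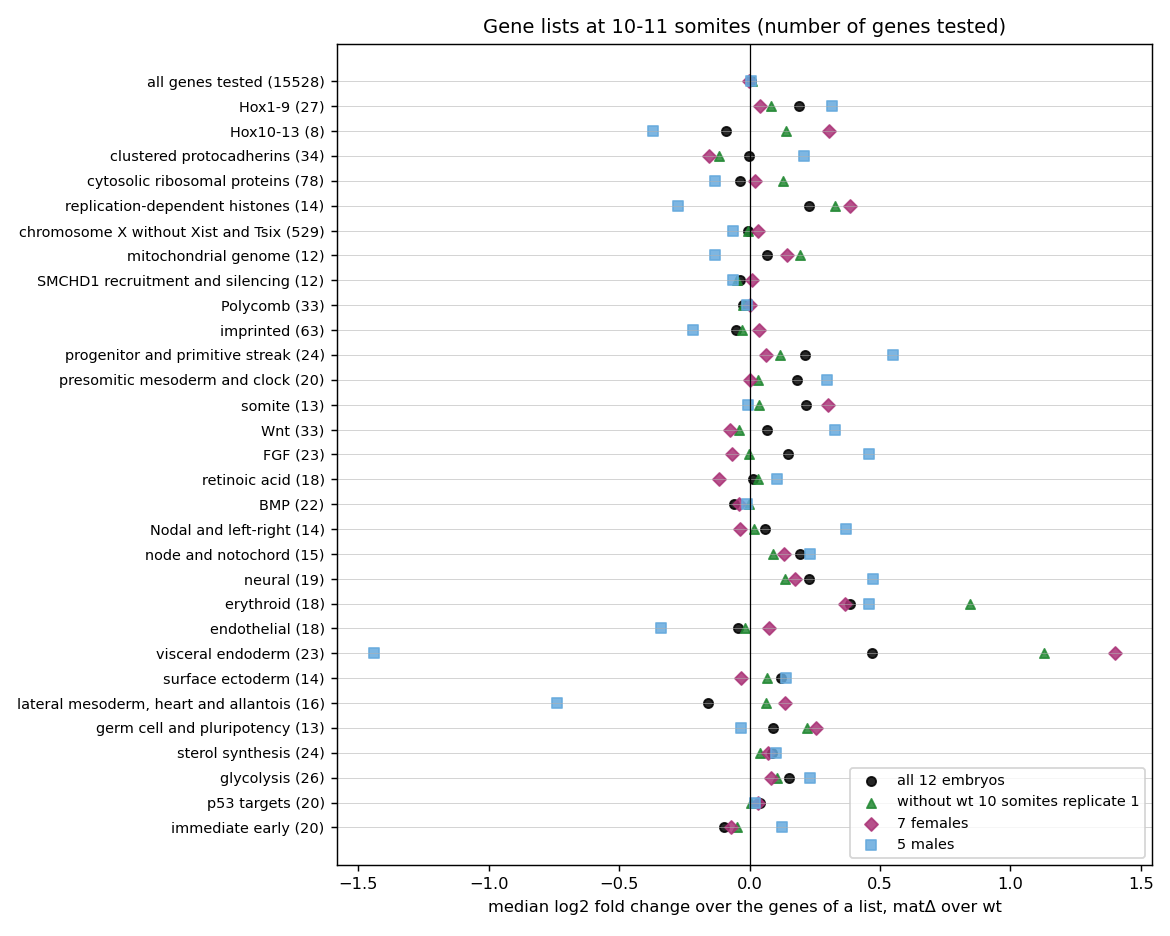
Median log2 fold change (Smchd1 matΔ over Smchd1 wt) of each gene list at 10 to 11 somites, with the number of genes tested in brackets, from all 12 embryos, without Smchd1 wt replicate 1 at 10 somites, in 7 females and in 5 males. Glycolysis is above 0 in all 4 settings (0.08 to 0.23), visceral endoderm runs from -1.44 in males to 1.40 in females, and all genes stay near 0.

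The lean of the genotype differences with transcript length turned when the same library was left out. Counts of genes with over 10000 bases of exon made up 9.51% of the counts in Smchd1 wt replicate 1 at 10 somites and 11.6% to 13.4% in the other 11 embryos. Over the 1357 tested genes of that length the median log2 fold change was 0.07, with 85 higher and 12 lower nominal genes (7.15%, against 4.13%). Without that control it was -0.01, with 38 and 59 (7.15%, against 6.04%). Shorter genes were then the higher ones. The 841 genes of at most 1000 bases had a median of 0.10 (47 higher and 12 lower nominal, 7.02%), and the 1936 of 1000 to 2000 bases of 0.09 (109 and 20, 6.66%), where the medians with it were 0.02 and -0.0082. The 3098 genes of 6000 to 10000 bases went from 0.02 (87 and 44, 4.23%) to -0.02 (50 and 138, 6.07%). The 12 higher genes named above had a median exonic length of 7772 bases and the 12 lower ones of 3976 bases, against 4117 bases over all tested genes. Ubr4, Plec, Pfkp, Syne2, Dclk2 and Huwe1, an X-linked ubiquitin ligase (log2 fold change 0.36 with that control and 0.19 without it), are each over 10000 bases. Whether length accounted for their values was not tested.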

How the data were processed

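RNA-seq was performed by the authors on snap-frozen tailbuds, from 100 ng of total RNA or less, with single-end reads of 75 bases. Libraries came from an unstranded or a stranded TruSeq kit, and which library had which is not given in the sources used here. By the methods and labels of the study, the authors trimmed reads with Trim Galore 0.4.4, mapped them to GRCm38.p6 with HISAT2 2.0.5 and quantified them in SeqMonk. The deposited raw counts per gene hold 35542 named genes, after 49 rows with a repeated gene identifier were left out, the copy with the most counts being kept. The deposited log2 RPKM values of Hox genes were corrected by the authors for library size and transcript length. A table of the authors' own comparisons was not used.

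Genes passing filterByExpr (minimum count 10) were fitted with edgeR 4.0.16 (R 4.3.3) by the quasi-likelihood test after TMM normalisation. Benjamini-Hochberg adjustment ran over all genes tested, with a threshold of 0.05, two-sided. Models held genotype, somite number as a factor and sex. DESeq2 1.42.0, RLE scaling, no filter, no sex, a replicate block, each sex alone, all 37 embryos, single stages and each embryo left out were alternatives. The scripts were tested on simulated data. Named genes were the 12 with the smallest p in each direction (mean CPM at least 1, no unnamed models), in each list the smallest p and any under 0.05 (of the X-linked genes only some are printed), the 3 smallest p in tests of effect differences, and Smchd1, Peg12, Ndn and Hoxc6. The embryos, genes and lists were chosen with earlier results of these data known. Replicates are separate embryos by their labels. Reads carry no molecular identifiers. The values of some genes are not reported here. Exonic lengths are unions of exons in GENCODE M21, also GRCm38.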

Additional observations from a re-analysis of the deposited data

Results flagged for a closer look

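Samples far from the rest of their group were sought with Dixon's gap test in 120 groups of values, of which 21 were marked, while chance marks about 1 in 20. Most marks fell on Smchd1 wt replicate 1 at 10 somites. Within the 4 Smchd1 wt embryos with 10 somites, it was farthest from the others for Tmem28 (10.2 CPM, lowest), Nat8l (8.04 CPM, lowest), Gpr4 (0.720 CPM, lowest) and Mgat2 (141 CPM, highest). Among the marker lists it was highest there for visceral endoderm (4563 CPM) and for lateral mesoderm, heart and allantois (657 CPM). It was lowest for the neural list (182 CPM), the progenitor and primitive streak list (3009 CPM) and the presomitic mesoderm and clock list (645 CPM).

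Within all 7 Smchd1 wt embryos the same library was lowest for Syne2 (27.95 CPM), for the share of counts in genes over 10000 bases of exon (9.51%) and for the neural list, and highest for Mgat2 and for the visceral endoderm, erythroid (4188 CPM) and surface ectoderm (859 CPM) lists. Smchd1 wt replicate 1 at 11 somites was highest for Polh (36.5 CPM), which widened the distance between the genotypes for that gene.

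Within the 5 Smchd1 matΔ embryos, replicate 3 at 10 somites was highest for Tmem28 (27.4 CPM) and Nat8l (21.4 CPM), replicate 1 at 10 somites for Pdhx (40.1 CPM) and replicate 2 at 10 somites for visceral endoderm (4402 CPM).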

How the results depend on the processing

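The count of 0 genes for genotype over both stages stayed at 0 in each of the 12 fits without one embryo, under RLE, without the filter, without sex, in each sex alone and in the fit of all 37 embryos; DESeq2 gave 2, and leaving out both libraries rich in visceral endoderm RNA, chosen after seeing the data, gave 1 (Smchd1). At an unadjusted p-value under 0.05 the 642 genes became 293 without sex, 209 in the fit of all 37 embryos, 1098 without both libraries, and 434 to 1301 with one embryo left out (1301 when Smchd1 matΔ replicate 2 at 11 somites was dropped, 1235 when Smchd1 wt replicate 1 of that stage was). Smchd1 passed under DESeq2 (-0.68) and without both libraries (-0.82), and ranged from -0.80 to -0.51 with one embryo left out. DESeq2 gave 4 genes at 11 somites, 3 for 11 minus 10 in genotype effect, 4 for somite number, 110 for sex, 3 at 6 to 9 somites and 1 for the difference between windows. Without the filter there were 37 genes for sex and 3 at 6 to 9 somites. Leaving out one embryo gave 0 genes in each comparison of genotype or somite number where it was run (not at 6 to 9 somites alone), and 15 to 95 for sex, the highest without Smchd1 matΔ replicate 2 at 11 somites.

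The labels give no pairing of embryos by replicate number. Deviations of same-numbered embryos correlated at -0.28, -0.13 and 0.36 at 10 somites and at -0.08 and -0.15 at 11 somites. So few values cannot decide whether same-numbered embryos shared a litter or were processed together. A replicate block was fitted by number and stage, with sex in the model. Only replicate 2 at 10 somites joined embryos of unlike sex, so genotype was estimated from the other same-numbered pairs. Smchd1 wt replicate 4 at 10 and replicate 3 at 11 somites had no partner. With the block 0 genes passed and 277 had an unadjusted p-value under 0.05. At 10 and 11 somites these were 0 and 657, and 0 and 308. The cause of these changes was not tested.

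Among named genes, none past the threshold, the sign turned for Pcdha3 (-0.034), Evx1 (-0.045) and Rpl15 (0.00981) in females alone, for Rpl15 (0.00954) without both libraries, and for mt-Nd3 (-0.25) and Sh3gl2 (0.020) in males alone. With one embryo left out, mt-Nd3 ran from -0.24 to 1.03, Phlda3 from -0.51 to 0.015 and Sh3gl2 from -0.24 to 0.14, with the sign turned without Smchd1 matΔ replicate 3 at 10 somites (mt-Nd3, Phlda3) or either Smchd1 matΔ embryo at 11 somites (Sh3gl2). With 5 against 7 embryos and 8477528 counts at the least, small changes of weakly expressed genes were not detectable. The difference in Smchd1, the deleted gene, did not pass the adjusted threshold in the main edgeR fit either.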
